A study of Mus musculus with 12 samples.

Results

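The mitochondrial respiratory chain was followed here through 87 of the 12393 genes that the arrays measured with at least 1 probe set of a single gene symbol. A probe set is a group of short probes on the array that read 1 transcript. Members were the genes whose symbols begin with Nduf, Sdha, Sdhb, Sdhc, Sdhd, Uqcr, Atp5 or Cox followed by 4 to 8, and measured values played no role in the rule. It found 160 probe sets with 1 symbol, and 8 further probe sets that named several genes were left out. Complex I had 33 genes, complex II 4, complex III 8, complex IV 17 and ATP synthase 17. The other 8 genes were caught by their symbols but encode assembly factors, which build the complexes without staying in them, so they were counted apart. Ndufa4, first described in complex I and later assigned to complex IV, was counted with complex IV.

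Mouse embryonic fibroblasts (MEFs) were treated with a chemical combination that the labels call SGCF or with another that they call 6TCF, and RNA was read on Affymetrix Mouse Genome 430A 2.0 arrays. The groups were SGCF at days 0, 5 and 10 and 6TCF at days 0, 5 and 10, with 2 arrays each and 12 in all. According to the labels, MEFs were plated embryo by embryo, and a day after seeding all cultures moved to a medium richer in serum, with basic fibroblast growth factor. The series title places the work in the study of fibroblasts changed into other lineages by chemicals. What each combination contains, the strain and the embryonic age are not stated in the labels. No array is labelled as an untreated culture at day 5 or 10, so a change from day 0 also holds time in culture and medium.

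The respiratory chain lies in the inner mitochondrial membrane. Complexes I and II pass electrons from NADH and succinate to ubiquinone, complex III passes them to cytochrome c, and complex IV passes them to oxygen. Complexes I, III and IV pump protons as they do so, and ATP synthase uses the returning protons to make ATP. Most subunits are encoded in the nucleus, and all the genes described here are nuclear. The few subunits encoded in mitochondrial DNA carry other symbols and are not covered by the rule.

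Values are log2(intensity + 16) after quantile normalization, and a difference between groups is a log2 change with its standard error (SE) from a limma fit to all 12 arrays. A gene was called higher or lower when its p-value, adjusted by Benjamini-Hochberg over 10674 genes tested, was under 0.05. The labels do not say whether the 2 arrays of a group came from separate embryos or cultures, and p-values then measure only the spread between those arrays, which may be technical. Replicate arrays correlated at 0.985 to 0.996, against 0.924 to 0.983 between groups. Raw array medians were 60.9 to 86.2 in SGCF and 102.4 to 142 in 6TCF, so a processing batch and the arm cannot be told apart wherever SGCF is set against 6TCF. The summed intensity of 12 fibroblast markers was 60154 to 80688 over SGCF arrays and 73812 to 81435 over 6TCF arrays, but single markers moved: by day 10, 5 were called higher and 3 lower in SGCF, and 5 higher and 7 lower in 6TCF. Lum, a matrix proteoglycan, changed by 3.55 in SGCF and 5.22 in 6TCF, and Pdgfrb, a growth factor receptor, by -0.28 in SGCF (not called) and -1.61 in 6TCF. In bulk RNA, fewer cells of a type and less RNA per cell cannot be told apart.

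Respiratory chain genes were among the brighter genes. All 87 passed the filter on dim genes, 79 averaged over log2 8 and 70 over log2 10 across the arrays. Cox8b, Cox7c and Cox7a1 had the lowest averages (5.56, 5.69 and 5.93), and Cox7a1 and Cox7c each had at least 1 group mean below the filter level of log2 5.27. The highest averages were 13.8 for Cox6a1, 13.27 for Uqcrb, 13.16 for Cox5b, 13.03 for Atp5g3 and 13.02 for Cox4i1. Such averages come from different probes and do not rank the transcripts.

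By day 10 many respiratory chain genes were higher in 6TCF cultures, and far fewer were higher in SGCF cultures. In SGCF at day 10 against day 0, 15 of the 87 were called higher and 5 lower, with a median change of 0.07. Of all 10674 genes in that comparison, 20.5% were called higher and 18.2% lower (38.6% in all), with a median of 0.03, so the share of respiratory chain genes called higher (17.2%) lay near that background. The direction of the SGCF median depended on the scaling: scaling each array to 1 median gave 8 higher, 9 lower and a median of -0.03. Leaving out SGCF day 10 replicate 1 or 2 left 12 or 10 genes called in either direction, against 20 with all arrays, and over all arrays left out in turn the median was -0.01 to 0.14. In 6TCF at day 10 against day 0, 53 genes were called higher and 2 lower, with a median change of 0.47. There, 23.2% of all genes were called higher and 19.9% lower (43.1% in all), with a median of -0.01. The 6TCF median was 0.43 under both other scalings, with 44 or 53 genes called higher.

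The rise in 6TCF was partly present at day 5. At day 5 against day 0, 11 genes were called higher and 0 lower in SGCF, with a median of 0.16, where limma called 12.8% of all genes higher and 12.6% lower (25.4% in all). At an unadjusted p under 0.05, 21 genes were higher and 2 lower there, and without SGCF day 5 replicate 1 the number called was 6. In 6TCF, 30 were called higher and 1 lower, with a median of 0.25, where 15.1% of all genes were called higher and 12.4% lower (27.6% in all). Scaling to 1 median left 13 genes called higher in 6TCF at day 5, and the 31 calls in either direction dropped to 15 without either 6TCF day 0 array and to 20 without 6TCF day 5 replicate 1. Day 5 and day 10 were set against the same day 0 arrays. Day 10 against day 5 gave 3 higher and 5 lower in SGCF, with a median of -0.08, where 11.6% of all genes were called higher and 9.89% lower (21.5% in all). The same step in 6TCF gave 8 higher and 1 lower, with a median of 0.20, where 8.6% of all genes were called higher and 6.99% lower (15.6% in all). These later steps rested on single arrays: the SGCF count of 8 dropped to 1 without SGCF day 5 replicate 1 or either SGCF day 10 array, to 4 without SGCF day 5 replicate 2 and to 5 without either 6TCF day 0 or day 10 array. The 6TCF count of 9 dropped to 1 without 6TCF day 5 replicate 1 or either 6TCF day 10 array and to 3 without 6TCF day 5 replicate 2, and it was 15 without either SGCF day 0 array.

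Bright genes as a class showed no such shift by day 10 of 6TCF. Of the 1739 genes tested that averaged over log2 10, 26.5% were called higher and 24.4% lower there, with a median of 0.01. Quantile normalization gives all arrays the same distribution, so it largely holds such a class near 0 by itself. With arrays scaled to 1 median, the class had 23.2% higher, 25.6% lower and a median of 0 by day 10 of 6TCF. Its median by day 10 of SGCF was then -0.10. The plot of complexes by day shows the same course for every complex in 6TCF. There, each complex averaged below its 12-array mean on both day 0 arrays and above it on both day 10 arrays. In SGCF the 2 arrays of a group often fell on both sides of the mean, and complex IV was the class with the lowest day 0 values. Where a class had 0 genes called in one direction by day 10, limma's unadjusted p was under 0.05 in that direction for 1 complex IV gene (lower) and 1 ATP synthase gene (higher) in SGCF and for 0 genes otherwise.

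**Figure D1:**
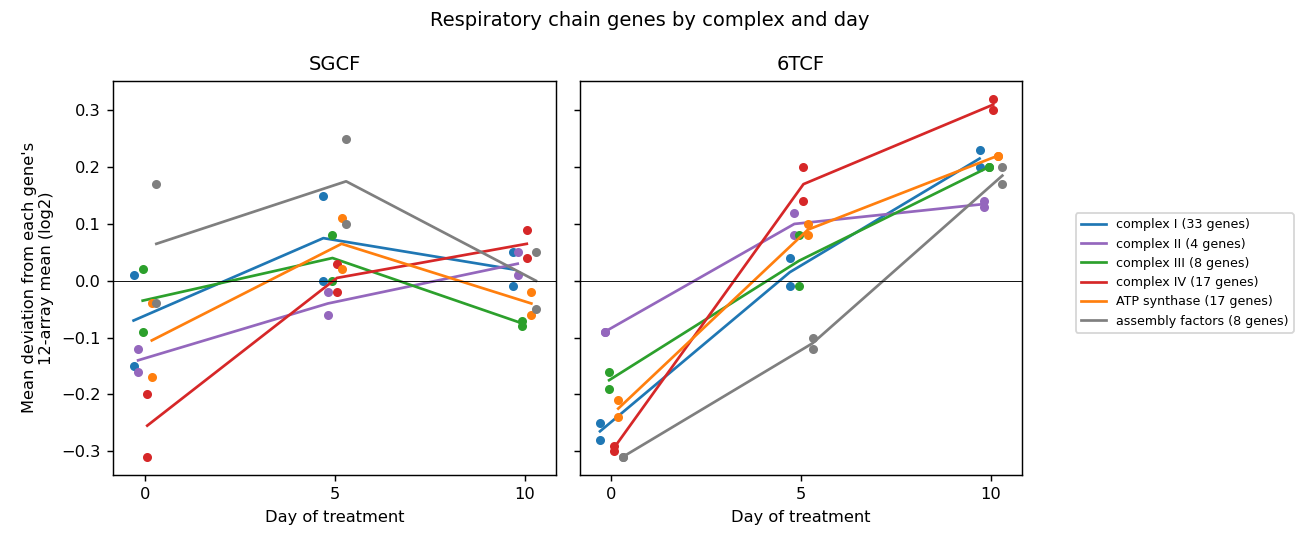
Mean deviation of each complex from its genes' own 12-array means (log2, vertical axis) by day of treatment in SGCF (left) and 6TCF (right); points are arrays and lines join the means of 2 arrays. Complex IV in 6TCF stood at -0.29 and -0.30 at day 0, 0.20 and 0.14 at day 5, and 0.32 and 0.30 at day 10.

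Complex I oxidises NADH and is the largest complex of the chain. In SGCF at day 10, 6 of its 33 genes were called higher and 1 lower, with a median of 0.06 that became -0.08 when arrays were scaled to 1 median. In 6TCF at day 10, 23 were called higher and 0 lower, with a median of 0.47. Ndufa6, an accessory subunit of the LYR protein family, had the largest change of the complex in both arms. It stood at 9.98 and 10.29 on the SGCF arrays at day 0, 10.75 and 10.66 at day 5, and 11.03 and 11.13 at day 10. On the 6TCF arrays it stood at 10.23 and 10.11, then 11.2 and 11.15, then 11.78 and 11.72. Each later group lay above every array of its day 0 group. The log2 change by day 10 was 0.95 ± 0.13 in SGCF (1.93-fold, limma adjusted p = 0.000118) and 1.59 ± 0.13 in 6TCF (3.0-fold, adjusted p = 1.74e-06). By day 5 the change was already 0.57 ± 0.13 in SGCF and 1.01 ± 0.13 in 6TCF, and the further step from day 5 to day 10 of 0.58 ± 0.13 in 6TCF was called (adjusted p = 0.013), though not without 6TCF day 5 replicate 1 (0.60) or either 6TCF day 10 array (0.55 and 0.61).

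The Ndufa6 promoter is shown because this gene rose in both arms and its promoter holds a core motif of NRF1. NRF1 (nuclear respiratory factor 1) is a transcription factor known to bind many respiratory chain promoters. A link between the motif and the rise was not tested. The sequence is RefSeq's, from 250 bases before to 50 after the gene start, on GRCm38.p6, chr15:82354242-82354541, minus strand, 5′ to 3′. Capitals mark the NRF1 core.
Ndufa6: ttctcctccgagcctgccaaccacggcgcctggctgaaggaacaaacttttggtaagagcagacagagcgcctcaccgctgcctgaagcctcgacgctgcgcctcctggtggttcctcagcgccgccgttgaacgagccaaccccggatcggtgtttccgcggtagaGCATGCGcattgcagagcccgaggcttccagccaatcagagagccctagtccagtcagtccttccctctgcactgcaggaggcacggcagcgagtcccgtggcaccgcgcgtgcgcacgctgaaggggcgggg

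The core subunits of complex I carry the flavin and iron-sulfur centres, and the supernumerary ones surround them. These role groups were set after the values had been seen, so their counts are a description with no test. In SGCF by day 10, 1 of 6 core genes was called higher and 1 lower, and 5 of 27 supernumerary genes were called higher and 0 lower, with medians of -0.01 and 0.06. In 6TCF by day 10, 2 of 6 core genes and 21 of 27 supernumerary genes were called higher, with medians of 0.22 and 0.51. Ndufv2 (0.58 ± 0.12, adjusted p = 0.00222) and Ndufs7 (0.47 ± 0.11, adjusted p = 0.00637) were the core genes called. Ndufs1, which carries iron-sulfur centres of the NADH arm, read 9.69 and 9.65 at day 10 of SGCF, against 10.02 and 10.15 at day 0. That change of -0.41 ± 0.13 was called lower (adjusted p = 0.024), but not without SGCF day 0 replicate 2 (-0.34) or either day 10 array (-0.43 and -0.39). In 6TCF, Ndufs1 changed by 0.16 and was not called.

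Among the supernumerary subunits, Ndufb11, a membrane-arm subunit, followed Ndufa6. Its day 10 arrays read 12.51 and 12.58 in SGCF, against 11.92 and 11.93 at day 0, and 12.67 and 12.68 in 6TCF, against 11.69 and 11.61 at day 0. The changes were 0.62 ± 0.11 in SGCF (adjusted p = 0.000907) and 1.02 ± 0.11 in 6TCF (adjusted p = 1.95e-05), and neither group overlapped its day 0 group. Ndufb9 changed by 0.91 ± 0.13 in 6TCF (adjusted p = 0.000208) and by 0.13 in SGCF, where it was not called. Ndufa1 and Ndufa3, the brightest genes of the complex, changed by 0.35 and 0.24 in SGCF and by 0.61 and 0.72 in 6TCF, and of these 4 values only Ndufa3 in SGCF was not called. The Ndufa1 call in SGCF was lost under scaling to 1 median and without SGCF day 0 replicate 1 (0.26), day 10 replicate 1 (0.31) or day 10 replicate 2 (0.38). Ndufv3, a flavoprotein-arm subunit, was called higher in both arms by day 10 (0.40 in SGCF and 0.75 in 6TCF). Ndufb10 was called higher at day 5 of SGCF (0.49) and lower at day 10 against day 5 (-0.41), leaving a change of 0.08 by day 10. The call for that later step was lost without any 1 of 8 arrays, with values of -0.46 to -0.37. Ndufb1, dim at 7.55 on average, was the gene of this complex with the largest negative change in 6TCF (-0.24, not called).

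Complex II, succinate dehydrogenase, also belongs to the TCA cycle and has 4 subunits, each described here. By day 10, 1 of the 4 was called higher in SGCF and 2 in 6TCF, and 0 were called lower in either. Sdha, the flavoprotein, read 11.01 and 10.98 at day 10 of SGCF, against 10.67 and 10.46 at day 0, and 10.63 and 10.78 at day 10 of 6TCF, against 10.9 and 10.92 at day 0. Its changes were 0.43 ± 0.13 in SGCF (adjusted p = 0.0203) and -0.21 in 6TCF (not called). A second probe set of Sdha read 0.28 in SGCF and 0.51 in 6TCF, so the 2 probe sets disagreed on the direction in 6TCF and no direction is settled for Sdha there. The SGCF call was also lost under scaling to 1 median (0.30), with the mean of both probe sets (0.35) and without SGCF day 0 replicate 2 (0.32), day 10 replicate 1 (0.42) or day 10 replicate 2 (0.44). Sdhb, the iron-sulfur subunit, was not called in any comparison and changed by -0.17 in SGCF and -0.01 in 6TCF.

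Sdhc and Sdhd anchor the complex in the membrane. Sdhc changed by 0.36 in SGCF (adjusted p = 0.056) and by 0.55 ± 0.14 in 6TCF (adjusted p = 0.00661). Sdhd changed by 0.07 in SGCF and by 0.57 ± 0.12 in 6TCF (adjusted p = 0.00199). A second, dimmer probe set of Sdhd changed by -0.58 in SGCF and -0.15 in 6TCF, so the Sdhd rise rests on 1 of its 2 probe sets, and the mean of both (0.21) was not called.

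Complex III hands electrons to cytochrome c. At day 10 of SGCF, 1 of its 8 genes was called higher and 1 lower, with a median of -0.01 that was -0.08 under scaling to 1 median and 0.02 under cyclic loess. At day 10 of 6TCF, 4 were called higher and 1 lower, with a median of 0.28. By role, again in groups set after values were seen, 4 of 5 small subunit genes were called higher in 6TCF, and of the 3 large or catalytic ones, 0 were called higher and 1 lower. Uqcr11, the smallest subunit, read 11.28 and 11.34 on the SGCF arrays at day 0, 11.7 and 11.55 at day 5, and 11.54 and 11.56 at day 10. On the 6TCF arrays it read 11.19 and 11.12, then 11.95 and 11.83, then 12.13 and 12.2. Its change by day 10 was 0.24 in SGCF (not called) and 1.01 ± 0.11 in 6TCF (2.02-fold, adjusted p = 2.38e-05).

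The Uqcr11 promoter is shown because this gene rose in 6TCF and its promoter holds cores of NRF1 and of ETS-family factors, to which GABP belongs. The sequence is RefSeq's, on GRCm38.p6, chr10:80406772-80407071, minus strand, 5′ to 3′, over the same window around the gene start. Capitals mark the ETS core and, further on, NRF1 cores on both strands that overlap each other by all but 1 base.
Uqcr11: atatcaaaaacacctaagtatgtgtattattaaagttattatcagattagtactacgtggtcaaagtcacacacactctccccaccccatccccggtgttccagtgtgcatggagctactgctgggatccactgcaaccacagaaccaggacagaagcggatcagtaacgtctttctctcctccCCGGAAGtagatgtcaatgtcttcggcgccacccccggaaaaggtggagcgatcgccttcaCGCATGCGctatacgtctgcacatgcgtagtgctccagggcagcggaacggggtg

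Uqcrh, an acidic hinge subunit, was called higher in both arms by day 10, by 0.58 ± 0.13 in SGCF (adjusted p = 0.00458) and 0.85 ± 0.13 in 6TCF (adjusted p = 0.000297). Uqcr10 changed by 0.05 in SGCF and by 0.92 ± 0.12 in 6TCF (adjusted p = 0.000104). Uqcrb, the brightest gene of the complex, was not called in either arm (-0.06 in SGCF and 0.24 in 6TCF). A second, dimmer probe set of Uqcrb changed by -0.46 in SGCF and 0.30 in 6TCF. Uqcrq, which binds ubiquinone, went in opposite directions: it read 10.82 and 10.89 at day 10 of SGCF, against 11.36 and 11.55 at day 0, and 11.59 and 11.6 at day 10 of 6TCF, against 11.32 and 11.23 at day 0. The changes were -0.60 ± 0.12 in SGCF (adjusted p = 0.00186) and 0.32 ± 0.12 in 6TCF (adjusted p = 0.046). The other 3 probe sets of Uqcrq averaged 6.27 or less and did not all share these directions.

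Uqcrc1, a large core protein, was called lower in 6TCF. It read 10.85 and 10.94 at day 10, against 11.42 and 11.38 at day 0, a change of -0.50 ± 0.13 (adjusted p = 0.00754). The call was lost without 6TCF day 0 replicate 1 (-0.48) or 6TCF day 10 replicate 1 (-0.46). Uqcrc2, its partner, was lower at day 5 of 6TCF (-0.44 ± 0.15, adjusted p = 0.0404) and not at day 10 (0.12). A second probe set of Uqcrc2 changed by 0.01 at day 5, and the day 5 call was lost without any 1 of 8 arrays, with values of -0.46 to -0.42. Uqcrfs1, the Rieske iron-sulfur protein, was not called in any comparison.

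**Figure D2:**
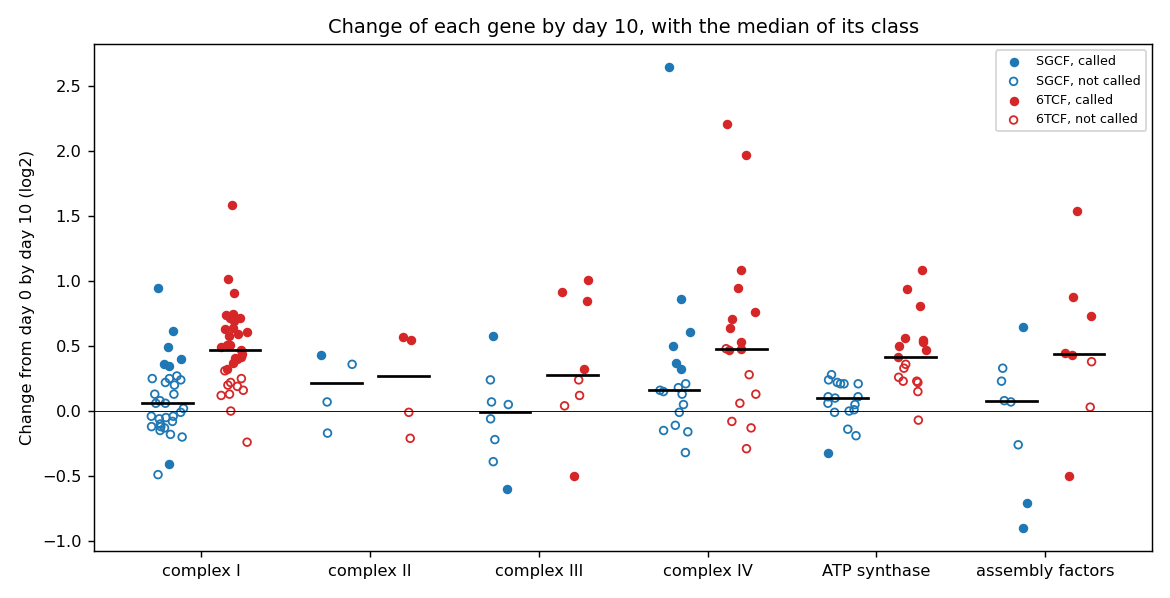
Log2 change from day 0 by day 10 (vertical axis) for each of the 87 genes by complex, SGCF left and 6TCF right in each pair; filled points were called at an adjusted p under 0.05 and bars are medians. Most 6TCF points of complex I lie above 0, with 23 of 33 called, against 6 called higher among the SGCF points.

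Complex IV, cytochrome c oxidase, has several subunits with tissue or alternative isoforms. By day 10, SGCF had 6 of its 17 genes called higher and 0 lower, with a median of 0.16. 6TCF had 10 called higher and 0 lower, with a median of 0.48. Cox6b2, the form of subunit 6B known from testis, had the largest change of all 87 genes in both arms. It read 7.56 and 7.72 on the SGCF arrays at day 0, 9.69 and 9.75 at day 5, and 10.28 and 10.3 at day 10. On the 6TCF arrays it read 8.26 and 8.06, then 10.02 and 10.18, then 10.2 and 10.53. All treated arrays at days 5 and 10 lay above all 4 arrays at day 0.

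By day 10 Cox6b2 changed by 2.65 ± 0.14 in SGCF (6.29-fold, adjusted p = 7.14e-08) and by 2.21 ± 0.14 in 6TCF (4.61-fold, adjusted p = 2.39e-07). Most of this was present by day 5, at 2.09 ± 0.14 in SGCF and 1.94 ± 0.14 in 6TCF. At day 0 it was already 0.52 ± 0.14 lower in SGCF than in 6TCF by the limma fit (adjusted p = 0.0265). The day 0 call was lost without SGCF day 0 replicate 1 or either 6TCF day 0 array, with SGCF minus 6TCF values of -0.62 to -0.42. Its general counterpart Cox6b1 read between 12.55 and 13.25 on all 12 arrays. Cox6b1 changed by 0.18 in SGCF (not called) and by 0.64 ± 0.13 in 6TCF (adjusted p = 0.00233).

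Cox7a1, the form of subunit 7A known from heart and skeletal muscle, rose in 6TCF. It read 5.66 and 5.46 on the 6TCF arrays at day 0, 6.67 and 6.76 at day 5, and 7.68 and 7.38 at day 10. On the SGCF arrays it stayed near the filter level, at 5.4 and 5.44, then 5.11 and 5.01, then 5.23 and 5.31. The 6TCF groups did not overlap each other. The change by day 10 was -0.15 in SGCF (not called) and 1.97 ± 0.13 in 6TCF (3.92-fold, adjusted p = 3.64e-07), and these folds understate dim genes because of the added 16. The call held in 6TCF whichever single array was left out.

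Muscle markers moved with Cox7a1 in part. By day 10 of 6TCF, 6 of 12 skeletal muscle markers were called higher and 1 lower, against 0 higher and 1 lower in SGCF, and the summed intensity of the 12 was 520 to 732 at day 10 of SGCF and 653 to 2374 at day 10 of 6TCF. The high value belonged to 6TCF day 10 replicate 2, where Myog, a muscle regulator, read 7.28, against 5.65 in replicate 1, and Mylpf, a myosin light chain, read 9.42, against 6.84. Cox7a1 was not higher in replicate 2 (7.38) than in replicate 1 (7.68). At day 5 of 6TCF, where Cox7a1 was already called higher (1.15 ± 0.13, adjusted p = 4.36e-05), the muscle sum was 401 to 518, below the 1492 to 1584 at day 0. That sum follows its brightest marker, Acta1, a muscle actin, whose mean went from 10.34 at day 0 to 7.38 at day 5. Acta1 was the 1 muscle marker called there, and 9 of the 12 had a positive change (median 0.18). Of 5 cardiac markers tested, 0 were called higher and 1 lower by day 10 of SGCF, and 3 higher and 1 lower by day 10 of 6TCF. The summed intensity of 7 cardiac markers was 262 to 382 at day 10 of SGCF, against 372 to 386 at day 0, and 416 to 1989 at day 10 of 6TCF, against 389 to 396 at day 0. Actc1, cardiac actin, read 7.57 and 10.38 at day 10 of 6TCF, again higher in replicate 2. The part of skeletal or heart muscle cells in the result was not tested.

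The promoters of Cox6b1, Cox6b2 and Cox7a1 are shown because the pair 6B1 and 6B2 and the muscle form 7A1 carry the isoform differences. They are RefSeq's, on GRCm38.p6, over the same window, 5′ to 3′. Cox6b1 is at chr7:30626065-30626364 on the minus strand, Cox6b2 at chr7:4753045-4753344 on the minus strand and Cox7a1 at chr7:30183921-30184220 on the plus strand. Capitals in Cox6b1 mark an ETS core, read on the opposite strand, and the other promoters have 0 matches to any of the 3 motifs searched.
Cox6b1: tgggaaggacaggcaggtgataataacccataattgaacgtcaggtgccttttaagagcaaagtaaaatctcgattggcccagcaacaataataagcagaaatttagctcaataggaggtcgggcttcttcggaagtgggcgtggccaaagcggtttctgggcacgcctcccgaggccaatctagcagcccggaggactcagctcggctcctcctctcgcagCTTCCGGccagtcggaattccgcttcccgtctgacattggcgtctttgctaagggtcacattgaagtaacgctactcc
Cox6b2: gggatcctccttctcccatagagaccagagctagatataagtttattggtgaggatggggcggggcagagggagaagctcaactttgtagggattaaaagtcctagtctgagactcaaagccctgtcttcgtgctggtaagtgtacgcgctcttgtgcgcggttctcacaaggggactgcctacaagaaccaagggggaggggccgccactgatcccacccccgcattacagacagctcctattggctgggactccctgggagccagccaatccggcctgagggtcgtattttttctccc
Cox7a1: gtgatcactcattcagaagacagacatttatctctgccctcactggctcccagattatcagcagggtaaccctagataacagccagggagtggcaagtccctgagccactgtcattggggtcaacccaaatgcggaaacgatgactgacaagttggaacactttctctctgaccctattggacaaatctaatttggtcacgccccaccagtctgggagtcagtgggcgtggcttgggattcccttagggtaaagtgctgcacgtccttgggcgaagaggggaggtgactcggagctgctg

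The motifs searched on both strands were GCATGCG for NRF1, CCGGAAG for ETS factors and GATGGCG for YY1, each a short core. RefSeq's table held 78 promoters for 73 of the 87 genes. At least 1 core lay in 43.6% of these, against 14.5% of all 32851 promoters of the same length. By motif the shares were 15.4% against 3.58% for NRF1, 25.6% against 8.86% for ETS and 12.8% against 3.49% for YY1. The median GC content was 58.8% in these promoters and 52.7% in all promoters, and its part in the motif shares was not tested. A match describes letters in this window, not a bound site. Cox6a1 (cores of NRF1, ETS and YY1) and Sdhb (NRF1 and ETS) were not called in any comparison. Ndufaf4 and Ndufaf5 hold the NRF1 core and were called lower in SGCF. Sdhaf4, Ndufb11 and Cox7a2l were called higher in both arms and Ndufa4 and Uqcr10 in 6TCF, with none of these cores. Others that rose, such as Uqcrh, Cox8a and Atp5e in 6TCF, hold an ETS core. Whether a match goes with a change was not tested.

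Other alternative forms stayed dim. Cox4i2, a lung and oxygen-responsive form of subunit 4, read 6.67 and 6.59 at day 10 of SGCF, against 6.25 and 6.02 at day 0. Its change of 0.50 ± 0.14 was called in SGCF (adjusted p = 0.0175), but not without SGCF day 0 replicate 2 (0.39), day 10 replicate 1 (0.46) or day 10 replicate 2 (0.54). In 6TCF, Cox4i2 changed by 0.13 and was not called. Cox8b, a muscle form of subunit 8, was called at day 5 of SGCF only among the comparisons made (0.47 ± 0.13, adjusted p = 0.0174), and not without SGCF day 0 replicate 1 (0.43) or SGCF day 5 replicate 2 (0.32). Cox6a2, a muscle form of subunit 6A, and Cox8c, a testis form, were not called in any comparison.

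Of the general subunits, Cox8a changed in both arms, by 0.61 ± 0.11 in SGCF (adjusted p = 0.00114) and 0.71 ± 0.11 in 6TCF (adjusted p = 0.00037) by day 10. Ndufa4 read 12.34 and 12.48 at day 10 of SGCF, against 12.03 and 12.46 at day 0, and 13.09 and 13.08 at day 10 of 6TCF, against 11.99 and 12 at day 0. Its change was 0.16 in SGCF (not called) and 1.09 ± 0.15 in 6TCF (2.13-fold, adjusted p = 0.000101). Cox4i1 was called higher in both arms, at 0.32 ± 0.11 in SGCF (adjusted p = 0.0427) and 0.48 ± 0.11 in 6TCF (adjusted p = 0.00474). The SGCF call for Cox4i1 was lost under scaling to 1 median and without any 1 of 8 arrays, with values of 0.29 to 0.35, and the 6TCF call was lost without 6TCF day 10 replicate 2 (0.41). Cox5b changed by 0.13 in SGCF (not called) and 0.53 in 6TCF (called), and Cox7a2 by 0.15 in SGCF (not called) and 0.47 in 6TCF (called). Cox6a1, the brightest gene of all 87, and Cox5a were not called by day 10 in either arm. A second probe set of Cox6a1 (12.32 on average) changed by 0.34 in SGCF and 0.38 in 6TCF, against -0.01 and 0.06 for the brightest one. Cox7c, whose probe sets averaged 5.69 and 4.72, was too dim for a firm statement.

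Cox7a2l, also known as SCAF1, a factor that joins complexes III and IV into supercomplexes, was called higher in both arms at both later days. It read 11.31 and 11.45 on the SGCF arrays at day 0, 12.21 and 12.06 at day 5, and 12.23 and 12.26 at day 10. On the 6TCF arrays it read 11.29 and 11.19, then 12.06 and 11.93, then 12.22 and 12.16. The changes by day 10 were 0.86 ± 0.12 in SGCF (adjusted p = 0.000129) and 0.95 ± 0.12 in 6TCF (adjusted p = 5.45e-05), and the difference between the arms (-0.09 ± 0.17) was not called. The other 2 probe sets gave 0.89 and 0.93 in SGCF and 0.89 and 0.95 in 6TCF.

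**Figure D3:**
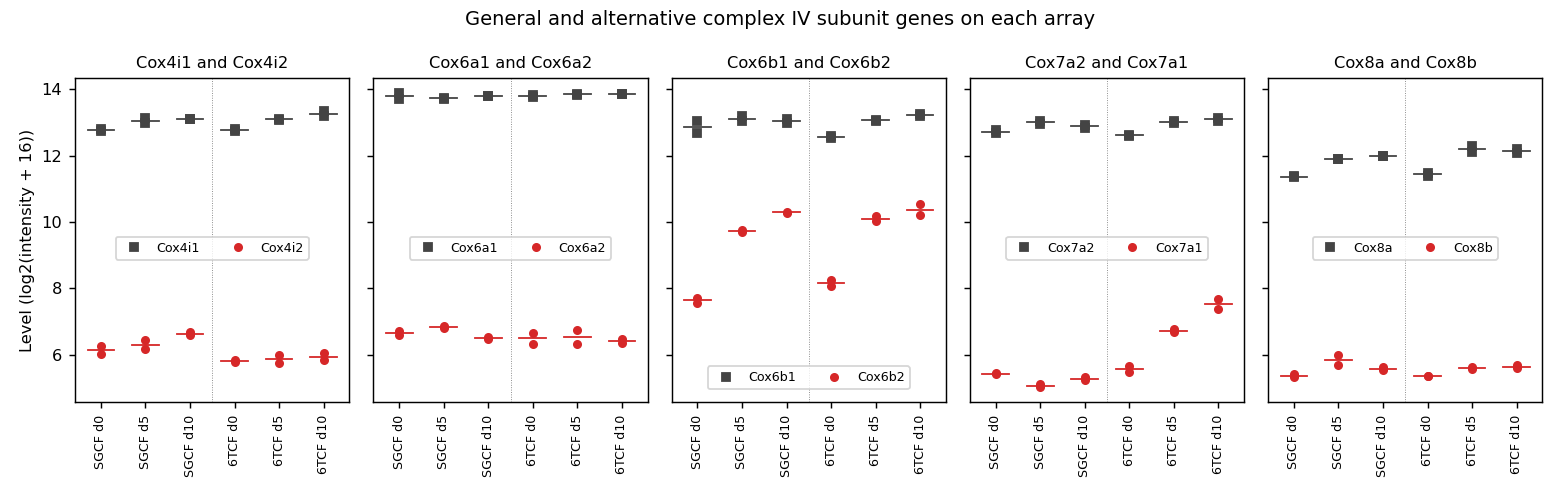
Level (log2(intensity + 16), vertical axis) of 5 general complex IV subunit genes (squares) and an alternative form of each (circles) on every array, SGCF groups left of the dotted line and 6TCF groups right of it; short lines are means of 2 arrays. Cox6b2 climbs in both arms, Cox7a1 climbs in 6TCF, and Cox4i2, Cox6a2 and Cox8b stay under log2 7; levels of different probe sets do not rank the transcripts.

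ATP synthase was the class with no gene called higher in SGCF by day 10: 0 of 17 were called higher and 1 lower, with a median of 0.10 that became -0.04 when arrays were scaled to 1 median. At day 10 of 6TCF, 9 were called higher and 0 lower, with a median of 0.42. By role, 1 of 5 genes of the catalytic F1 head and central stalk, 1 of 3 genes of the membrane ring and 7 of 9 stalk or membrane accessory genes were called higher in 6TCF, in groups set after values were seen. Atp5b and Atp5a1, the catalytic beta and alpha subunits, changed by -0.07 and 0.23 in 6TCF and by -0.14 and 0.10 in SGCF, and none of the 4 values was called. Atp5e, the epsilon subunit of the central stalk, read 11.66 and 11.78 at day 10 of SGCF, against 11.42 and 11.79 at day 0, and 12.19 and 12.2 at day 10 of 6TCF, against 11.18 and 11.02 at day 0. Its change was 0.11 in SGCF (not called) and 1.09 ± 0.16 in 6TCF (2.13-fold, adjusted p = 0.000219).

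Of the accessory subunits, Atp5j2 changed by 0.94 ± 0.15 (adjusted p = 0.000453) and Atp5mpl by 0.81 ± 0.14 (adjusted p = 0.000544) in 6TCF, and by 0.28 and 0.22 in SGCF, where neither was called. The membrane ring is built from one protein that 3 genes encode. Atp5g1 was called lower in SGCF by day 10 (-0.32 ± 0.11, adjusted p = 0.0422), with 10.92 and 10.87 at day 10, against 11.21 and 11.23 at day 0, and it changed by 0.15 in 6TCF. That call was lost without any 1 of 10 arrays, with values of -0.35 to -0.30. Atp5g2 was called higher in 6TCF (0.56 ± 0.11, adjusted p = 0.00139) and not by day 10 of SGCF (0.24), and its 6TCF call was lost with the mean of its 2 probe sets (0.08). Atp5g3, the brightest gene of the complex, was called in neither arm, with changes of 0.21 in SGCF and 0.22 in 6TCF.

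The assembly factors went both ways. By day 10, 1 of 8 was called higher and 2 lower in SGCF, with a median of 0.08 that was -0.01 under scaling to 1 median, and 5 higher and 1 lower in 6TCF, with a median of 0.44. Sdhaf4, which helps the flavoprotein of complex II to mature, read 9.78 and 10.14 at day 0 of SGCF, 10.65 and 10.42 at day 5 and 10.54 and 10.68 at day 10. In 6TCF it read 9.74 and 9.55, then 10.62 and 10.61, then 11.18 and 11.19, so no later array overlapped day 0. The changes by day 10 were 0.65 ± 0.14 in SGCF (adjusted p = 0.00406) and 1.54 ± 0.14 in 6TCF (2.91-fold, adjusted p = 6.11e-06). Sdhaf1, for the iron-sulfur subunit, changed by 0.07 in SGCF (not called) and 0.88 in 6TCF (called). Sdhaf2, for flavin attachment, changed by 0.08 in SGCF (not called) and 0.43 in 6TCF (called).

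Of the 5 genes called lower by day 10 of SGCF, 2 were complex I assembly factors. Ndufaf4 read 8.71 and 8.65 at day 10 of SGCF, against 9.52 and 9.63 at day 0, and 9.01 and 8.92 at day 10 of 6TCF, against 9.42 and 9.52 at day 0. The changes were -0.90 ± 0.11 in SGCF (adjusted p = 7.43e-05) and -0.50 ± 0.11 in 6TCF (adjusted p = 0.00393). A second probe set changed by -0.67 in SGCF and 0.12 in 6TCF, so the probe sets shared a direction in SGCF and not in 6TCF, where their mean (-0.19) was not called. Ndufaf5, which modifies a core subunit, changed by -0.71 ± 0.17 in SGCF (adjusted p = 0.00588) and by 0.03 in 6TCF. Ndufaf7, a methyltransferase for a core subunit, changed by -0.26 in SGCF (not called) and by 0.73 ± 0.14 in 6TCF (adjusted p = 0.00112). At day 0, Ndufaf7 was already 0.83 ± 0.14 higher in SGCF than in 6TCF (adjusted p = 0.0031), at 8.44 and 8.49 against 7.64 and 7.64.

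The lists of genes called higher by day 10 shared 13 genes, which is 86.7% of the 15 in SGCF and 24.5% of the 53 in 6TCF. Over all 10674 genes the shared 1224 were 56% of the SGCF list and 49.5% of the 6TCF list, and 60.9% of the respiratory chain genes were called higher in 6TCF to begin with. Cox4i2 and Sdha were called higher in SGCF and not in 6TCF. A called change of over 2-fold upward was measured for 1 gene in SGCF (Cox6b2) and 8 genes in 6TCF. The share of all genes over 2-fold is not given beside these counts, so they are not set against a background. The change by day 10 was larger in 6TCF than in SGCF for 78 of the 87 genes. At day 0, 72 of the 87 already read higher in SGCF than in 6TCF, against 5613 of all 10674 genes. Those day 0 values enter both changes, so the 78 do not describe the response alone. Across these genes the changes in the arms correlated at 0.63 (Pearson) and 0.54 (Spearman), against 0.61 (Pearson) across all 10674 genes, and at 0.61 without Cox6b2 and Cox7a1. The arms share no array, but genes on an array are not independent, so no test was made of this.

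The difference itself was tested as the SGCF change minus the 6TCF change. By day 5, 1 gene was called lower and 0 higher, where limma called 5.97% of all genes lower and 2.85% higher (8.82% in all). At an unadjusted p under 0.05, 9 genes were lower and 0 higher. The gene was Cox7a1 (-1.51 ± 0.19, adjusted p = 0.000397). The median was -0.14, but 0.04 when arrays were scaled to 1 median. By day 10, 24 of 87 were called lower and 1 higher, with a median of -0.37, where 13.3% of all genes were called lower and 12.1% higher (25.4% in all), with a median of 0.01. The median was -0.45 and -0.35 under the other scalings. Leaving out single arrays moved the total of 25 calls: to 9 without 6TCF day 0 replicate 1, 6TCF day 0 replicate 2 or 6TCF day 10 replicate 1, to 10 without SGCF day 0 replicate 2 or SGCF day 10 replicate 1, to 12 without 6TCF day 10 replicate 2 and to 14 without SGCF day 10 replicate 2. It moved to 39 without SGCF day 0 replicate 1. The median kept its sign without any 1 array, at -0.45 to -0.28.

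Cox7a1 had the largest difference by day 10 (-2.12 ± 0.19, adjusted p = 2.73e-05). Ndufaf7 (-0.99 ± 0.19, adjusted p = 0.00414), Atp5e (-0.98 ± 0.23, adjusted p = 0.0105), Ndufa4 (-0.92 ± 0.21, adjusted p = 0.00817), Uqcrq (-0.92 ± 0.17, adjusted p = 0.00287) and Sdhaf4 (-0.89 ± 0.20, adjusted p = 0.00986) followed. Day 0 levels enter these differences: Ndufaf7 then stood 0.83 higher in SGCF than in 6TCF (called) and Atp5e 0.51 higher (not called). By class, 8 of 33 complex I genes, 1 of 4 complex II genes, 3 of 8 complex III genes and 2 of 17 complex IV genes were called lower. So were 6 of 17 ATP synthase genes and 4 of 8 assembly factors. The complex IV share (11.8%) lay below the 13.3% of all genes called lower. The gene called higher was Sdha (0.64 ± 0.18, adjusted p = 0.0257), whose second probe set gave -0.23. Cox6b2 (0.45), Cox7a2l (-0.09) and Cox8a (-0.09) were not called.

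**Figure D4:**
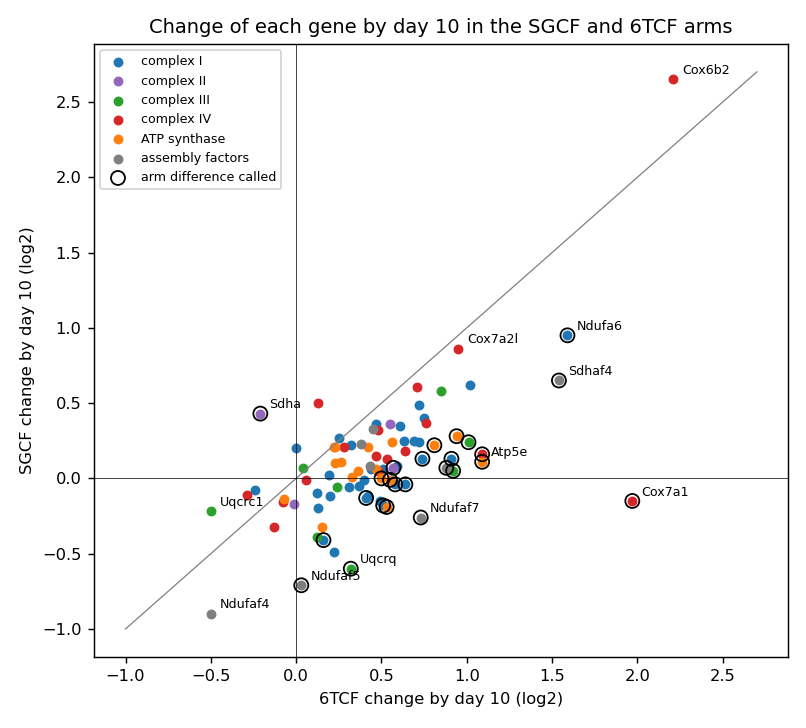
Log2 change by day 10 of each of the 87 genes in SGCF (vertical axis) against 6TCF (horizontal axis), coloured by complex; rings mark the 25 genes whose change differed between the arms at an adjusted p under 0.05, and the diagonal is equal change. Of the 87 points, 78 lie below the diagonal, and Cox7a1 lies at -0.15 in SGCF and 1.97 in 6TCF.

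At day 0 the arms were not equal, and their levels at day 5 or day 10 were not set against each other in a test. SGCF against 6TCF gave 4 genes called higher and 1 lower, with a median of 0.17, where 8.52% of all genes were called higher and 8.61% lower (17.1% in all), with a median of 0.02. The genes higher in SGCF were Ndufaf7, Sdhaf2 (0.44), Ndufb9 (0.42) and Ndufa5 (0.39), and the gene lower was Cox6b2. The calls for Ndufb9 and Ndufa5 were each lost without any 1 of 9 arrays (0.27 to 0.45 and 0.31 to 0.40), and that for Sdhaf2 without any 1 of 5 (0.31 to 0.46). The number called moved to 19 without SGCF day 0 replicate 1, to 3 without SGCF day 0 replicate 2, SGCF day 10 replicate 1 or SGCF day 10 replicate 2, to 2 without either 6TCF day 10 array and to 1 without either 6TCF day 0 array. For Ndufb9, the day 0 values were 11.65 and 11.96 in SGCF, against 11.4 and 11.36 in 6TCF. The day 0 arrays enter every comparison of SGCF and 6TCF changes.

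RNA quality and markers of other cell types moved with the same contrasts, beside the fibroblast and muscle markers above. Actin control probe sets near the 3′ end exceed those near the 5′ end as RNA or its copying is less complete, and on the log2 scale this excess was 0.29 and 0.33 at day 0 of SGCF, 0.46 and 0.41 at day 5 and 0.54 and 0.53 at day 10. In 6TCF it was 0.33 and 0.35, then 0.78 and 0.81, then 1.06 and 1.02. The Gapdh excess was 0.15 and 0.11 at day 10 of SGCF, against 0 and -0.06 at day 0, and 0.48 and 0.46 at day 10 of 6TCF, against 0.24 and 0.31 at day 0. The summed intensity of 12 macrophage markers was 445 to 587 at day 10 of SGCF, against 7720 to 8640 at day 0, and 1600 to 1736 at day 10 of 6TCF, against 3447 to 3634 at day 0. By day 10, 12 of 12 were called lower in SGCF and 10 of 12 in 6TCF. Of 3 epithelial markers tested, 0 were called higher in SGCF (by limma, and 0 at an unadjusted p under 0.05) and 3 in 6TCF, with sums of 4 markers of 344 to 509 at day 10 of SGCF, against 335 to 419 at day 0, and 3103 to 3360 at day 10 of 6TCF, against 490 to 515 at day 0. The sum of 6 neuronal markers was 2919 to 3700 at day 10 of SGCF, against 932 to 961 at day 0, and 2509 to 2738 at day 10 of 6TCF, against 1291 to 1312 at day 0. Single neuronal markers went both ways: of 5 tested, 4 were called higher and 1 lower by day 10 of SGCF, and 3 higher and 2 lower by day 10 of 6TCF. Adipocyte markers, 5 measured of 6, summed to 886 to 978 at day 10 of SGCF, against 181 to 216 at day 0, and 498 to 538 at day 10 of 6TCF, against 239 to 250 at day 0. The part of any of these in the changes of respiratory chain genes was not tested.

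Other mitochondrial genes, on lists chosen with earlier results of these data known, did not all follow. Over all genes by day 10, 20.5% were called higher and 18.2% lower in SGCF, and 23.2% higher and 19.9% lower in 6TCF. All 74 mitochondrial ribosomal protein genes on the array were tested. Of these genes, which serve the translation of mitochondrially encoded subunits, 4 were called higher and 16 lower by day 10 of SGCF (median -0.17), and 29 higher and 1 lower by day 10 of 6TCF (median 0.29). Mrps18a changed by 0.48 ± 0.12 in SGCF and 1.07 ± 0.12 in 6TCF, and Mrpl18 by -0.80 ± 0.20 in SGCF (called) and 0.21 in 6TCF (not called). At day 0, 21 of these 74 (28.4%) were called higher in SGCF than in 6TCF and 0 lower, against 8.52% and 8.61% of all genes. Of 16 genes of the TCA cycle and pyruvate dehydrogenase, which feed electrons to the chain, 2 were called higher and 1 lower in SGCF, and 3 higher and 5 lower in 6TCF (median -0.04). These were 12.5% and 6.25% in SGCF and 18.8% and 31.2% in 6TCF. Cs, citrate synthase, changed by -0.24 in SGCF (not called) and -0.82 ± 0.17 in 6TCF (adjusted p = 0.00251), while Idh3b was called higher in both, by 0.41 in SGCF and 0.62 in 6TCF.

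The electron carriers did not all move together. Cycs, cytochrome c itself, was called lower in both arms by day 10, with changes of -0.77 ± 0.13 in SGCF (adjusted p = 0.000494) and -0.51 ± 0.13 in 6TCF (adjusted p = 0.00629). Cyc1, the cytochrome subunit of complex III that the symbol rule does not catch, changed by -0.45 ± 0.12 in SGCF (adjusted p = 0.0108) and 0.25 in 6TCF (not called). Of the 7 genes on a list of electron carriers that also holds Cyc1, 0 were called higher and 2 lower in SGCF (median -0.18). In 6TCF, 3 of them (42.9%) were called higher and 2 (28.6%) lower, with a median of 0.25. The shares over all genes were 20.5% higher and 18.2% lower in SGCF, and 23.2% higher and 19.9% lower in 6TCF. Of 27 assembly factors tested on a wider list, which repeats the 3 Sdhaf genes, 4 were called higher and 4 lower in SGCF and 11 higher and 2 lower in 6TCF. Cox18, which inserts a complex IV subunit, was called lower in both arms, with changes of -1.21 in SGCF and -1.11 in 6TCF. Cox19, a copper-related factor, was called higher in both, by 0.41 in SGCF and 0.97 in 6TCF.

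Regulators of mitochondrial genes were called in both directions. Of 16 tested, 3 were called higher and 5 lower in SGCF by day 10, and 5 higher and 3 lower in 6TCF. These were 18.8% higher and 31.2% lower in SGCF, against 20.5% and 18.2% of all genes. In 6TCF they were 31.2% higher and 18.8% lower, against 23.2% and 19.9% of all genes. Ppargc1a, encoding the coactivator PGC-1 alpha, read 4.65 and 4.5 on the SGCF arrays at day 0, 5.81 and 5.79 at day 5, and 6.74 and 7.76 at day 10. On the 6TCF arrays it read 4.98 and 4.95, then 7.51 and 7.82, then 7.04 and 6.97. It was called higher in both arms by day 10, by 2.68 ± 0.25 in SGCF (adjusted p = 6.3e-06) and 2.04 ± 0.25 in 6TCF (adjusted p = 5.05e-05). Esrra, a nuclear receptor that partners with it, was called higher in both arms, by 0.61 in SGCF and 1.14 in 6TCF. Nrf1 changed by -0.49 in SGCF (called) and -0.36 in 6TCF (not called), and Gabpa, the DNA-binding part of GABP, was called lower in both, with changes of -0.43 in SGCF and -0.49 in 6TCF. Tfb1m, for mitochondrial ribosomal RNA, was called lower in SGCF (-0.60) and higher in 6TCF (0.86). The plot of shares called sets these lists beside the complexes.

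**Figure D5:**
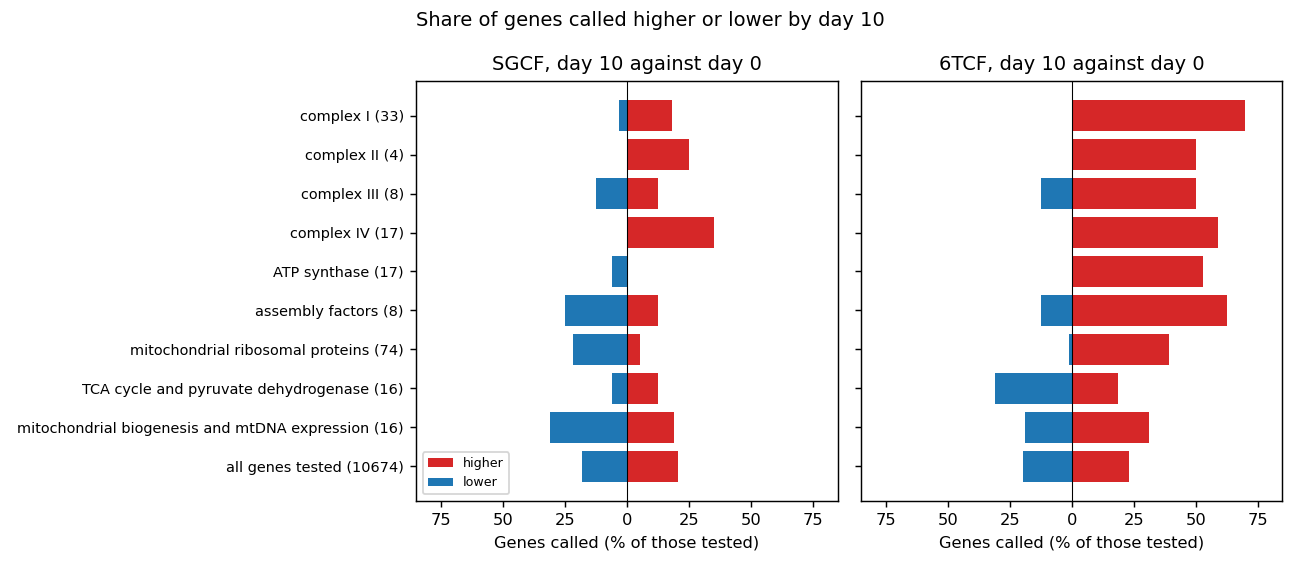
Share of tested genes called higher (red, right of 0) and lower (blue, left of 0) at day 10 against day 0, in percent, for SGCF (left) and 6TCF (right), with the number tested in brackets. In 6TCF, 69.7% of complex I genes and 39.2% of mitochondrial ribosomal protein genes were called higher, against 23.2% of all genes.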

How the data were processed

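RNA was read on 12 arrays, 2 in each of 6 groups taken from the sample titles. The deposited values are intensity values per probe set, on a linear scale. Per the submitters' processing notes, RMA, limma and MAS5 were used, with no versions or roles, and the sources used here do not give which of them the authors used for the deposited intensity. The deposited arrays differed in median, so they were not on a common scale.

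The 64 control probe sets were set aside for RNA quality. The other probe sets were quantile normalized between arrays, 16 was added, and log2 was taken; this log2 scale is not the deposited one. Of 22690 probe sets, 20380 carried exactly 1 gene symbol in the platform annotation, 691 several and 1555 none. Each gene took the values of its brightest probe set, by mean over all arrays. Genes whose highest group mean did not pass the 25th percentile of all values (log2 5.27) were left out. Members with several probe sets numbered 46, and of 49 other probe sets of members called by day 10 in 6TCF, 43 changed in the same direction (12 of 13 in SGCF). Sequence-similar gene copies may share probes, which was not tested.

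Tests used limma 3.58.1 in R 4.3.3 on all 12 arrays with 6 group means (6 residual and 5.53 prior degrees of freedom), and 9 comparisons were made, each with Benjamini-Hochberg adjusted p-values over 10674 genes. The fit was tested on simulated data. Full values go to the 5 largest called rises and falls of a comparison, tissue or alternative isoforms, complex II and the 2 brightest genes of each complex; other genes were chosen for naming after their values were seen. The members and lists were chosen with earlier results of these data known. The number of arrays limits the precision. Alternatives were other scalings, pseudocount 1, no filter, the mean of probe sets, a prior variance with a trend, a replicate block, each arm alone and leaving out each array. Same-numbered arrays did not deviate together (correlations of -0.27 to 0.11 over 15 pairs of groups, 2 of them over 0.1), so the numbers were not treated as pairs. Promoters are RefSeq's on GRCm38.p6, and all 87 members matched by Entrez number.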

Additional observations from a re-analysis of the deposited data

Results flagged for a closer look

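For 8 genes given full values by the naming rule above, the SGCF change from day 0 minus the 6TCF change, on the log2 scale, passed limma's test of the difference itself. Other genes, among them Sdhaf4 (-0.89), also passed by day 10 and are not listed here. Cox7a1 differed by day 5 (-1.51) and by day 10 (-2.12), with SGCF changes of -0.36 and -0.15 and 6TCF changes of 1.15 and 1.97. By day 10, Ndufaf7 differed by -0.99, Atp5e by -0.98, Ndufa4 by -0.92, Uqcrq by -0.92, Uqcr11 by -0.77 and Sdhd by -0.50. These calls held whichever single array was left out, except for Sdhd, whose call was lost without any 1 of 9 arrays (-0.54 to -0.38), and Uqcrq lost its call with the mean of its probe sets (-0.36). Sdha differed the other way (0.64), lost its call without any 1 of 6 arrays (0.53 to 0.65), and had a second probe set at -0.23. At day 0, Ndufaf7 already read 0.83 higher in SGCF than in 6TCF, which was called. The day 0 differences of the others were not called: Atp5e 0.51, Ndufa4 0.25, Uqcrq 0.18, Uqcr11 0.15, Sdhd 0.11, Cox7a1 -0.14 and Sdha -0.35. A difference in change is thus not a difference in level at day 10. Groups of 2 arrays allow no check for a single array far from the others.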

How the results depend on the processing

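The number of members called, 55 in 6TCF by day 10, stayed within 1.5 times under every alternative run (41 to 59 without 1 array), and so did 20 in SGCF except in a fit on the arm alone (12) and without 1 array (10 to 21). Other counts moved more. For 6TCF day 5 (31 called), scaling to 1 median gave 14, and leaving out 1 array gave 15 to 35. For SGCF day 5 (11), a prior variance with a trend gave 19, the arm alone 4, and leaving out 1 array 6 to 15. For day 10 against day 5 in 6TCF (9), the mean of probe sets gave 15, the trend 18, the arm alone 16, and leaving out 1 array 1 to 15. For the same step in SGCF (8), the trend gave 13, the replicate block 5, the arm alone 2, and leaving out 1 array 1 to 10. For SGCF against 6TCF at day 0 (5), median scaling gave 2, cyclic loess, pseudocount 1 and the replicate block 3 each, the mean of probe sets 8, the trend 14, and leaving out 1 array 1 to 19. For the arm difference by day 5 (1), the trend gave 2 and leaving out 1 array 1 to 3. By day 10 (25), pseudocount 1 gave 16, the trend 39, the replicate block 17, and leaving out 1 array 9 to 39. The cause of these moves was not tested. The replicate block, tried although the numbers pair no arrays, moved no other count by over 1.5 times. Changes of named genes that were called in the main fit gave 1726 values under alternatives. Of these, 1497 kept direction and call, 229 kept direction and lost the call, and 0 reversed. Changes not called in the main fit did not enter this count. The alternatives reuse the same arrays, so few reversals could occur among called changes. Each group has 2 arrays, which limits every comparison, and signal limits Cox7a1 and Cox7c, which had group means below the filter level, and Cox8b, which had the lowest average.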

Other observations

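Genes that respond to low oxygen, some of which set how much pyruvate reaches the respiratory chain, were split in both arms. Of 10 tested, 3 were called higher and 2 lower by day 10 of SGCF, and 6 higher and 4 lower by day 10 of 6TCF. Over all genes, 20.5% were called higher and 18.2% lower in SGCF, and 23.2% higher and 19.9% lower in 6TCF. Egln3, an oxygen-sensing hydroxylase, changed by -0.10 in SGCF (not called) and by 2.33 ± 0.15 in 6TCF (adjusted p = 2.56e-07). Slc2a1, the glucose transporter GLUT1, was called higher in SGCF (0.68 ± 0.15, adjusted p = 0.004) and lower in 6TCF (-1.02 ± 0.15, adjusted p = 0.000217). Ldha, which makes lactate from pyruvate, was called lower in both arms, with changes of -0.52 in SGCF and -0.55 in 6TCF.

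Of 10 mitochondrial carriers, pores and antioxidant enzymes tested, 1 was called higher and 3 lower in SGCF by day 10, and 1 higher and 2 lower in 6TCF. The shares were 10% and 30% in SGCF, against 20.5% and 18.2% of all genes, and 10% and 20% in 6TCF, against 23.2% and 19.9%. The gene called higher in each arm was Sod2, the mitochondrial superoxide dismutase, at 1.27 ± 0.12 in SGCF (adjusted p = 6.59e-06) and 0.82 ± 0.12 in 6TCF (adjusted p = 0.00018). Slc25a4, which exchanges ADP for ATP across the inner membrane, was not called in either arm (-0.05 in SGCF and 0.05 in 6TCF). Vdac3, a pore of the outer membrane, was called lower in both, with changes of -0.39 in SGCF and -0.46 in 6TCF.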
